A study of Mus musculus with 12 samples.

Results

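Cemip and 8 other genes of hyaluronan metabolism were examined in the nuclear RNA of adult mouse cardiomyocytes that carried an active form of YAP, the transcriptional co-activator held back by the Hippo pathway. The members were taken by gene symbol: the synthases Has1, Has2 and Has3, the breakdown genes Cemip, Hyal1 and Hyal2, the receptors Cd44 and Hmmr, and the matrix proteoglycan gene Vcan. All 9 were found among the 46983 symbols of the deposited count table, and all 9 passed the filter on low counts that left 17715 tested genes. Cemip was chosen by its measured counts in these libraries, for its large rise in YAP5SA, so its difference is described and not tested. The other 8 were taken for their known function.

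The control group was Myh6-MCM, which carries a tamoxifen-inducible Cre recombinase under a promoter active in heart muscle cells, that of Myh6. The YAP5SA group was Yap5SA+/tg; Myh6-MCM. Both groups were adult and both received tamoxifen, so Cre and drug were shared and the Yap5SA transgene set the groups apart. Nuclei were captured on beads through PCM1, a protein found around heart muscle nuclei, and each group had 2 libraries. Nothing in the labels says that the libraries came from separate animals, so a p-value here is set by library-to-library spread alone, and that spread may be technical.

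Hyaluronan is a long unbranched sugar chain of the extracellular matrix. The HAS enzymes build it at the cell membrane from a pair of nucleotide sugars and push it out of the cell, where versican and other proteins bind it into a hydrated gel. It is cut by hyaluronidases and by a separate pathway that needs CEMIP, and cells sense it through CD44 and HMMR. In the embryonic heart, hyaluronan and versican fill the cardiac jelly from which the valve cushions form, and Has2 is needed for those cushions.

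The promoter windows of Cemip and Hyal2 are shown because they set the gene with the greatest difference beside a member whose level hardly moved. Each runs from 250 bases before to 50 bases after the RefSeq start of the gene (build GRCm38.p6, the assembly called mm10), written 5′ to 3′ on the strand of the gene. The first is chr7:84086456-84086755 on the minus strand and the second chr9:107568913-107569212 on the plus strand. Capitals mark the TATAAA motif in Cemip and, in Hyal2, the letters that read GGAATG on the other strand.
Cemip: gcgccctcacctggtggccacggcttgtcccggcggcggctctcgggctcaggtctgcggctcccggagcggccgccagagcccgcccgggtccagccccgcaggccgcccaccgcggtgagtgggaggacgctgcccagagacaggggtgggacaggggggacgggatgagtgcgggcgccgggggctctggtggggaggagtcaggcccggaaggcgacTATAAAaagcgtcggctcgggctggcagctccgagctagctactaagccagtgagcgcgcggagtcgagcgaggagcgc
Hyal2: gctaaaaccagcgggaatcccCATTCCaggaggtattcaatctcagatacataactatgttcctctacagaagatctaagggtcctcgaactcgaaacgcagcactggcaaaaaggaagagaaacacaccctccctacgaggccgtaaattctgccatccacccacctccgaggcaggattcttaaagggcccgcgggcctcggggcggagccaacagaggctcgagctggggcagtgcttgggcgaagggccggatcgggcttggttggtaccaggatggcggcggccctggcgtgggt

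Windows of this kind were found for 7 of the 9 members. The core of the TEAD site, GGAATG, was searched on both strands, TEAD factors being the DNA-binding partners of YAP. It stood in 14.7% of all 32851 promoter windows and in 1 of the 7 members, Hyal2, at position -229 from the start. The AP-1 site TGANTCA stood in 7.81% of the windows and in 0 of the 7 members. Cemip held neither motif in this window. It did hold TATAAA, searched after the Cemip window had been seen, at position -29 from the start; this motif stood in 13.6% of all windows on one strand or the other. The Cemip window was also rich in G and C, at 73.7%, a value equalled or undercut by 95.2% of all windows, while the other 6 members lay between 50.7% and 61.0%. These are matches of letters and say nothing on whether a factor binds there.

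Total counts per library ran from 7850661 to 15012122. The biological coefficient of variation was 34.3% within the control pair and 8.44% within the YAP5SA pair. Cardiomyocyte markers were abundant in every library, with a summed level of 8 genes of 32097 and 65471 CPM (counts divided by library size, corrected by TMM factors) in control and 22768 and 23947 CPM in YAP5SA. Of the control sums, Ttn alone made up 19901 and 48149 CPM. Of these 8 genes, 0 passed with edgeR and 0 with limma-voom. With DESeq2 4 fell, beside 2.82% of its tested genes. In edgeR 4 were lower and 0 higher at an unadjusted p under 0.05, beside 1934 and 2256 of the 17715 tested genes. None of the 8 had a positive log2 fold change, and the median was -1.09. For 7 the libraries were lower in YAP5SA with no overlap, beside 28.3% of all tested genes. Markers of macrophages, fibroblasts and endothelial cells were present as well, with none at 0 counts in any library. Whether this RNA came from other cells in the preparations was not tested. In such bulk samples fewer cells of a type and less RNA per cell cannot be told apart. Over all tested genes, 3.12% were called higher and 0.999% lower in YAP5SA at an adjusted p under 0.05, and in 56.3% the libraries of the groups did not overlap.

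Cemip encodes a secreted protein needed for the breakdown of hyaluronan in several cell types. Its gene lies on chromosome 7, from 83932857 to 84086502. Cemip had 74 and 47 counts in control, or 6.70 and 6.21 CPM. In YAP5SA it had 16674 and 14246 counts, or 1124 and 1082 CPM. Both YAP5SA libraries lay far above both control libraries, and the libraries of each pair lay close together, the higher being 1.08 times the lower in control and 1.04 times in YAP5SA. The fitted fold change was 170, which was 6th among the tested genes in log2 fold change, and over 12 alternative fits it ran from 168 to 178. Cemip made up 0.000677% and 0.000599% of all counts in control, and 0.111% in each YAP5SA library (exact 95% intervals 0.109% to 0.113% in both). By count alone it went from place 11117 and 11402 among all genes in the control libraries to place 44 and 54 in the YAP5SA libraries.

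**Figure D1:**
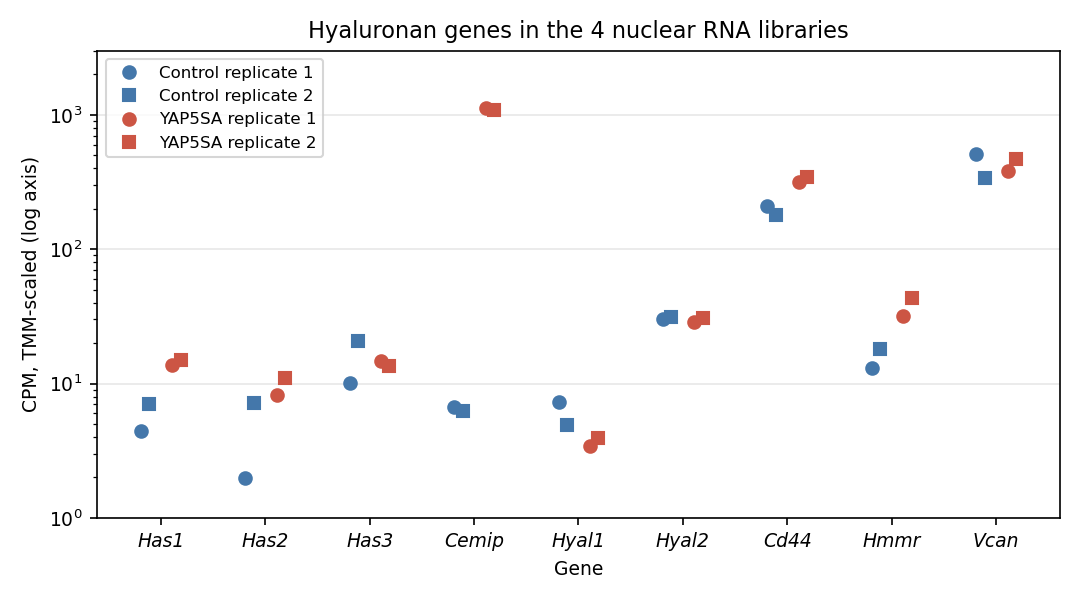
Level of the 9 hyaluronan genes in each of the 4 libraries, in TMM-scaled CPM on a log axis; circles are replicate 1 and squares replicate 2, blue control and red YAP5SA. Cemip moves from 6.70 and 6.21 CPM to 1124 and 1082 CPM, while Hyal2 lies between 28.8 and 31.5 CPM in all 4 libraries.

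Levels of different genes were compared per kilobase of merged exons. In control the order began with Vcan at 29.2 ± 8.44 CPM per kb and Cd44 at 28.6 ± 3.18 CPM per kb (SD, n = 2), which did not differ beyond their spread, followed by Hyal2 at 9.36 ± 0.279 CPM per kb. Hmmr, Has3, Hyal1, Has1 and Has2 came next, between 2.88 and 1.08 CPM per kb, each within the spread of its neighbour. Cemip had the lowest mean of the 9 at 0.528 ± 0.0283 CPM per kb (SD, n = 2), but it did not differ beyond the spread from Has2, at 1.08 ± 0.859 CPM per kb (SD, n = 2). In YAP5SA Cemip came first at 90.2 ± 2.41 CPM per kb, ahead of Cd44 at 48.5 ± 3.11, Vcan at 29.4 ± 4.27, Hyal2 at 9.03 ± 0.409 and Hmmr at 6.92 ± 1.57 CPM per kb (SD, n = 2). Has1 stood at 3.18, Has2 at 2.26, Has3 at 2.23 and Hyal1 at 0.978 CPM per kb, with Has2 and Has3 within their spread of each other. Among 13742 tested protein-coding genes Cemip was number 12671 in control and number 237 in YAP5SA by this measure. Dividing by the genomic span kept Cemip last in control and first in YAP5SA. The sources used here do not state whether intronic reads were counted, so a level per exon length is approximate in nuclear RNA.

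Tmem2, whose product is a cell-surface relative of CEMIP that also takes part in hyaluronan breakdown, was far less different. It measured 93.1 and 87.4 CPM in control and 146 and 156 CPM in YAP5SA (log2 fold change 0.74, SE 0.158, adjusted p = 0.0658 with the quasi-likelihood test of edgeR). Its libraries did not overlap between the groups, but only DESeq2 (adjusted p = 0.0226) of the 3 tools called it. The ratio of Cemip to Tmem2 CPM was 0.0720 and 0.0711 in control, against 7.69 and 6.92 in YAP5SA.

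None of the 8 other members passed with edgeR. At an unadjusted p under 0.05, 3 were higher and 0 lower, beside 23.7% of all tested genes in either direction. With limma-voom 0 passed, and with DESeq2 3 rose, Has1, Cd44 and Hmmr, beside 5.72% of its tested genes called higher and 2.82% lower. The median log2 fold change of the 8 was 0.38, beside -0.06 over all tested genes. The libraries of the groups did not overlap for 5 of the 8, close to the share over all genes: 4 were higher, beside 28.1% of all tested genes, and 1 was lower, beside 28.3%. Without control replicate 1, 3 of the 8 were called higher and 1 lower, beside 18.8% and 17.4% of all genes. Without control replicate 2, 5 were called higher and 1 lower, beside 19.7% and 18.6%. With 1 control library left, these fits held no measure of control spread. With no filter on low counts 4 were called higher and 0 lower, beside 5.65% and 5.53%. In the remaining settings 0 of the 8 were called: limma-voom (4.02% of all genes called in either direction), scaling by RLE size factors (4.36%) or by library totals alone (4.91%), a stricter filter of 1 CPM in all 4 libraries and 50 counts in all (2.99%), the replicate number as a block (2.44%) and the same with crossed numbers (2.43%). The same held without YAP5SA replicate 1 (0.388%) and without YAP5SA replicate 2 (0.143%).

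**Figure D2:**
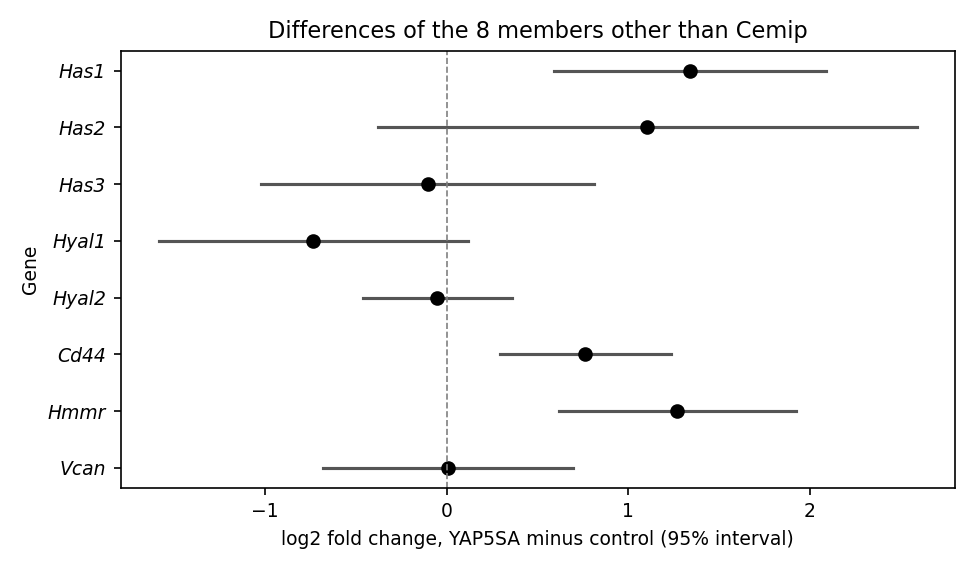
Log2 fold change, YAP5SA minus control, of the 8 members other than Cemip, with the 95% interval of the quasi-likelihood fit as a bar and 0 as a dashed line. The intervals of Has1, Cd44 and Hmmr lie above 0 before adjustment over all genes, those of Has2, Has3, Hyal1, Hyal2 and Vcan include it, and Has2 has the widest, from -0.38 to 2.59.

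Of the synthase genes, Has1 (chromosome 17, 17843323 to 17855205) was the clearest. It measured 4.44 and 7.01 CPM in control and 13.7 and 14.96 CPM in YAP5SA, from 49 and 53 counts against 204 and 197. Both YAP5SA libraries were above both control libraries, by more than the counting error of the control values (95% Poisson intervals 3.28 to 5.87 and 5.25 to 9.16 CPM). The log2 fold change was 1.34 (SE 0.299), and its adjusted p of 0.0727 missed the threshold. The log2 fold change of Has1 was 1.04 without control replicate 1 and 1.73 without control replicate 2. Without YAP5SA replicate 2 it was 1.29. The summed level of 6 markers of the epicardium and mesothelium was 61.0 and 42.8 CPM in control and 77.6 and 88.2 CPM in YAP5SA. Of these 6, 4 were higher with no overlap between the groups, beside 28.1% of all tested genes. Msln (log2 fold change -1.25, SE 0.412) and Upk1b (-1.45, SE 0.493) were lower with no overlap, beside 28.3%. With edgeR or limma-voom 0 passed, and 2 rose with DESeq2, beside 5.72% of its tested genes. At an unadjusted p under 0.05 in edgeR, 3 were higher and 2 lower, beside 2256 and 1934 of the 17715 tested genes. None of the 6 was at 0 counts. Their part in the level of Has1 was not tested.

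Has2 (chromosome 15, 56665627 to 56694539), the synthase needed in the embryonic heart, measured 1.99 and 7.14 CPM in control and 8.15 and 11.01 CPM in YAP5SA. The control libraries differed 3.58-fold, from 22 and 54 counts, and control replicate 2 came close to the lower YAP5SA library. The log2 fold change of Has2 was 1.11 (SE 0.592, adjusted p = 0.320), and the estimate turned on the control library kept. It was 0.43 without control replicate 1 and 2.29 without control replicate 2. Has2os, an antisense transcript that shares 182 exon bases with Has2, had 6 and 3 counts in control and 7 and 3 in YAP5SA.

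Has3 (chromosome 8, 106870242 to 106884566) measured 10.1 and 20.8 CPM in control and 14.8 and 13.6 CPM in YAP5SA. The YAP5SA libraries lay between the control libraries, and the log2 fold change was -0.10 (SE 0.367, adjusted p = 0.892, 95% interval -1.02 to 0.81). Its direction changed with the control library kept: 0.54 without control replicate 2 and -0.54 without control replicate 1. Has3 shares 352 exon bases with Chtf8 on the other strand, which had 350 and 331 counts in control and 843 and 775 in YAP5SA. Without a stated strand setting, reads of that stretch cannot be told apart.

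The makeup of the synthase counts differed between the groups. Has3 held 61.0% and 59.5% of the summed counts of the 3 synthases in control and 40.4% and 34.4% in YAP5SA. Has1 held 26.9% and 20.1% in control and 37.4% and 37.8% in YAP5SA, with exact 95% binomial intervals of 20.6% to 34.0% and 15.4% to 25.4% against 33.4% to 41.6% and 33.6% to 42.1%. Has2 held 12.1% and 20.5% against 22.2% and 27.8%. The values of these shares did not overlap between the groups, but the intervals of Has1 in control replicate 1 and YAP5SA did. Those of Has2 also overlapped, at 15.8% to 25.8% in control replicate 2 against 18.8% to 25.9% in YAP5SA replicate 1. The shares within a library depend on one another and are not separate results. With 2 libraries against 2 the smallest two-sided p of an exact permutation test is 0.333. The intervals cover counting error only. The summed level of the synthases was 16.5 and 34.9 CPM in control and 36.7 and 39.6 CPM in YAP5SA, so control replicate 2 lay near the YAP5SA libraries.

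**Figure D3:**
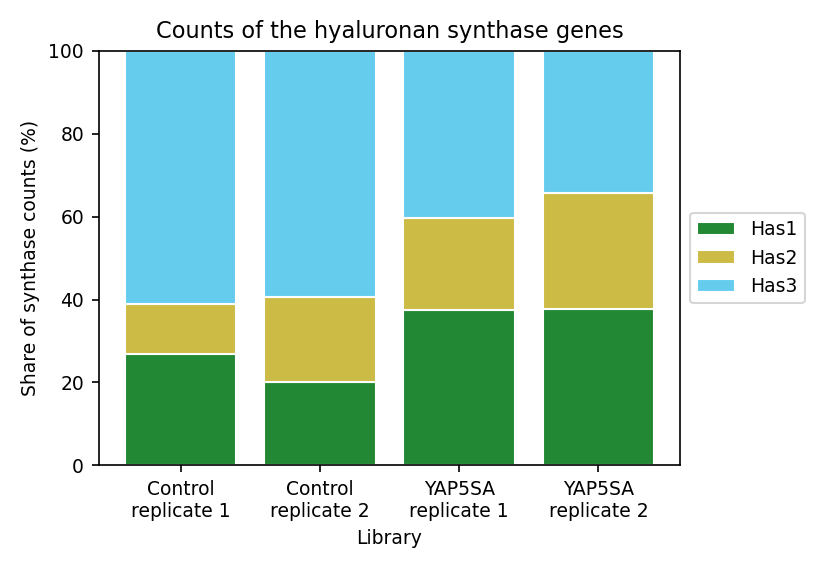
Share of Has1, Has2 and Has3 in the summed counts of the hyaluronan synthase genes, in percent, for each of the 4 libraries as a stacked bar. Has3 takes 61.0% and 59.5% of the control bars and 40.4% and 34.4% of the YAP5SA bars.

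The hyaluronidase genes lie side by side on chromosome 9, Hyal2 from 107567945 to 107572779 and Hyal1 from 107576927 to 107581710. Hyal2, whose product starts the cutting of long hyaluronan at the cell surface, measured 30.2 and 31.5 CPM in control and 28.8 and 30.7 CPM in YAP5SA. These 4 values agree within their counting intervals, and the log2 fold change was -0.05 (SE 0.164, adjusted p = 0.882). Its 95% interval ran from -0.46 to 0.36. Hyal1, the lysosomal hyaluronidase that takes over the shorter chains, measured 7.34 and 4.89 CPM in control and 3.44 and 3.95 CPM in YAP5SA. Both YAP5SA libraries were lower than both control libraries, but the counting intervals of control replicate 2 and both YAP5SA libraries overlapped. The log2 fold change of Hyal1 was -0.74 (SE 0.340, adjusted p = 0.262), and it passed in 1 of 12 alternatives. The log2 fold change was -0.40 without control replicate 1 and -0.96 without control replicate 2. Hyal1 shares 1920 exon bases with Naa80, listed as Nat6 in the table, and 159 with Hyal3, all on the same strand, so its counts are uncertain. Nat6 measured 8.24 and 7.80 CPM in control and 5.26 and 7.29 CPM in YAP5SA.

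Cd44 (chromosome 2, 102811141 to 102901665) encodes the main surface receptor of hyaluronan, which is found on many cell types and is abundant on leukocytes. It measured 209 and 178 CPM in control and 314 and 344 CPM in YAP5SA. Both YAP5SA libraries were above both control libraries, with a log2 fold change of 0.76 (SE 0.188) and an adjusted p of 0.0887 that missed the threshold. The log2 fold change of Cd44 was 0.89 without control replicate 1, 0.69 without control replicate 2 and 0.72 without YAP5SA replicate 2. Most macrophage markers were higher in the same libraries: 5 of 9 rose and 0 fell, beside 3.12% and 0.999% of all tested genes. Their summed level was 580 and 327 CPM in control and 882 and 1042 CPM in YAP5SA. A positive log2 fold change was found for 8, and Cd163 went the other way at -1.42 (SE 0.776). None of the 9 was at 0. Fcgr1, an Fc receptor gene, rose 3.70-fold (adjusted p = 0.0266) and Cd14, a lipopolysaccharide co-receptor gene, 3.22-fold (adjusted p = 0.0284). The part of macrophages in the level of Cd44 was not tested. When either YAP5SA library was left out, 0 macrophage markers passed.

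Hmmr (chromosome 11, 40701395 to 40733422) encodes a protein that binds hyaluronan outside the cell and microtubules inside it, where it helps to build the mitotic spindle. It measured 13.1 and 18.1 CPM in control and 31.5 and 43.6 CPM in YAP5SA. The groups did not overlap, and the log2 fold change was 1.27 (SE 0.261, adjusted p = 0.0619). The log2 fold change of Hmmr was 1.06 without control replicate 1, 1.55 without control replicate 2 and 1.04 without YAP5SA replicate 2. Among 8 genes that act with HMMR on the spindle or mark dividing cells, 1 rose and 0 fell with edgeR. Over all tested genes these shares were 3.12% and 0.999%. All 8 were higher with no overlap between the groups, beside 28.1% of all tested genes. Their median log2 fold change was 1.22. Bard1, which encodes the partner of BRCA1, rose from 3.08 and 4.76 CPM to 12.5 and 14.7 CPM (log2 fold change 1.81, SE 0.313, adjusted p = 0.0460). Tpx2, which encodes a spindle assembly factor, had a log2 fold change of 1.22 (adjusted p = 0.0544), and Top2a, the topoisomerase gene of dividing cells, one of 1.40 (adjusted p = 0.0558). Bard1 lost its edgeR call with the stricter filter, the replicate block and the crossed block (adjusted p = 0.0540, 0.0547 and 0.0642). It also lost the call without either YAP5SA library (log2 fold change 1.94 and 1.70).

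Vcan (chromosome 13, 89655312 to 89742509) encodes versican, a large chondroitin sulfate proteoglycan whose head domain binds hyaluronan. It measured 509 and 337 CPM in control and 381 and 469 CPM in YAP5SA. The YAP5SA libraries lay between the control libraries, and the log2 fold change was 0.01 (SE 0.274, adjusted p = 0.993). The 95% interval of Vcan ran from -0.68 to 0.69. Without control replicate 1 the log2 fold change was 0.34 and without control replicate 2 it was -0.22. Of 8 fibroblast markers, a cell type that makes versican, 1 rose and 0 fell, beside 3.12% and 0.999% of all tested genes. Their summed levels were 6823 and 5498 CPM in control and 5539 and 6835 CPM in YAP5SA. Lum, which encodes the proteoglycan lumican, rose 2.24-fold (adjusted p = 0.0394 with edgeR). That call was lost with the replicate block and the crossed block (adjusted p = 0.0573 and 0.0592). It was also lost without either YAP5SA library (log2 fold change 1.31 and 1.05). Of the 8 markers 4 had a positive log2 fold change, and the median was -0.05. The neighbour of Vcan, Hapln1, encodes the link protein that locks versican onto hyaluronan, and it had 1 to 3 counts per library and was not tested.

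Beyond the members, 90 other genes, called pathway genes here, were listed by function, of which 89 were in the table and 74 were tested. The lists reach beyond hyaluronan turnover. They take in genes that make or cut versican, partners of CD44, and 8 genes of the spindle or of dividing cells. Of the 74, 8 rose and 1 fell, beside 3.12% and 0.999% of all tested genes. At an unadjusted p under 0.05, 30 were higher and 3 lower, beside 2256 and 1934 of the 17715 tested genes. All 8 spindle or dividing-cell genes were among the 30. The median log2 fold change of the 74 was 0.40, beside -0.06 over all tested genes and 1.22 for those 8. Limma-voom also called 8 higher and 1 lower, beside 4.02% of all genes in either direction. DESeq2 called 20 higher and 1 lower, beside 5.72% and 2.82% of its tested genes. All 9 calls were lost without YAP5SA replicate 2, and without YAP5SA replicate 1 only those of Adamts5 and Ezr held. Without control replicate 1, 36 were called higher and 8 lower, beside 18.8% and 17.4% of all genes in that fit. Without control replicate 2, 37 were called higher and 9 lower, beside 19.7% and 18.6%.

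Among genes of enzymes that finish hyaluronan in the lysosome, Gusb and Hexa stood higher in value. The member Hyal1, also lysosomal, stood lower (log2 fold change -0.74, adjusted p = 0.262 with edgeR). Gusb, which encodes beta-glucuronidase, rose from 41.0 and 36.2 CPM to 72.4 and 91.7 CPM (log2 fold change 1.09, SE 0.194, adjusted p = 0.0487). Hexa, which encodes a lysosomal glycosidase subunit, had a log2 fold change of 0.89 and just missed the threshold (adjusted p = 0.0566). Of the 5 tested genes of this list, 1 rose and 0 fell, beside 3.12% and 0.999% of all tested genes. In 4 the YAP5SA libraries were higher with no overlap, beside 28.1% of all tested genes. Hyal4, Hyal5, Hyal6 and Spam1 had at most 2 counts in any library and were not tested. Gusb lost its edgeR call with the stricter filter, the replicate block and the crossed block (adjusted p = 0.0554, 0.0803 and 0.0583). It also lost the call without either YAP5SA library (log2 fold change 1.27 and 0.93).

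Of 10 tested genes that supply the sugar precursors, 0 passed with edgeR or limma-voom and 1 rose with DESeq2, beside 5.72% of its tested genes. At an unadjusted p under 0.05 in edgeR, 3 were higher and 0 lower, beside 2256 and 1934 of the 17715 tested genes. The median log2 fold change was 0.10. All 10 had no overlap between the groups, 6 higher and 4 lower in YAP5SA, beside 28.1% and 28.3% of all tested genes. Uap1, which encodes the enzyme that makes UDP-N-acetylglucosamine, measured 74.2 and 78.9 CPM in control and 108 and 132 CPM in YAP5SA (adjusted p = 0.107). Its relative Uap1l1 measured 10.3 and 5.68 CPM in control and 18.4 and 17.2 CPM in YAP5SA (adjusted p = 0.117).

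Among 6 tested receptors and uptake genes, 2 rose and 0 fell, beside 3.12% and 0.999% of all tested genes. Stab1, which encodes stabilin-1, a scavenger receptor of macrophages and sinusoidal endothelium, rose from 150 and 122 CPM to 286 and 330 CPM (log2 fold change 1.17, SE 0.201, adjusted p = 0.0452). Tlr2, which encodes a Toll-like receptor that can sense hyaluronan fragments, rose from 7.79 and 9.91 CPM to 25.1 and 30.5 CPM (log2 fold change 1.66, SE 0.231, adjusted p = 0.0329). Most of the macrophage markers given beside Cd44 were higher in the same libraries, and the part of macrophages in Stab1 and Tlr2 was not tested. Of 8 endothelial markers 0 rose and 2 fell, Vwf and Robo4, beside 3.12% and 0.999% of all tested genes. All 8 were lower with no overlap between the groups, beside 28.3%. Of the 8, 7 were lower at an unadjusted p under 0.05 in edgeR, beside 1934 of the 17715 tested genes. The summed levels of the 8 endothelial markers were 1470 and 1050 CPM in control and 769 and 733 CPM in YAP5SA. The calls of Vwf (log2 fold change -1.09 and -1.49) and Robo4 (-1.28 and -0.98) were lost without either YAP5SA library. With the replicate block Vwf and Robo4 missed the threshold in edgeR (adjusted p = 0.0616 and 0.0588). Robo4 also missed it with the stricter filter and the crossed block (adjusted p = 0.0524 and 0.0691). Lyve1, the hyaluronan receptor of lymphatic vessels and of some tissue macrophages, measured 79.6 and 12.2 CPM in control and 41.4 and 40.8 CPM in YAP5SA, so the control libraries differed 6.55-fold and enclosed the YAP5SA values (adjusted p = 0.918). Stab1 lost its edgeR call with the stricter filter, the replicate block and the crossed block (adjusted p = 0.0515, 0.0809 and 0.0552). Without either YAP5SA library the calls of Stab1 (log2 fold change 1.30 and 1.09) and Tlr2 (1.81 and 1.52) were lost.

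Transcripts of proteins that bind or crosslink hyaluronan were scarce, and 9 of 18 were tested. Of the 9, 0 rose and 1 fell, beside 3.12% and 0.999% of all tested genes. Ptx3, which encodes a pentraxin that helps to crosslink hyaluronan, fell from 21.6 and 14.4 CPM to 4.11 and 3.87 CPM (log2 fold change -2.18, SE 0.293, adjusted p = 0.0321), and lost the call without either YAP5SA library (adjusted p = 0.140 and 0.262). Tnfaip6, which encodes TSG-6, the enzyme that moves inter-alpha-inhibitor heavy chains onto hyaluronan, went the other way in value, from 5.52 and 3.97 CPM to 11.9 and 15.7 CPM (adjusted p = 0.0568). The hyaluronan-binding proteoglycan genes of cartilage and brain, Acan, Ncan and Bcan, had at most 16 counts in any library and were not tested.

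Proteases that cleave versican included Adamts5, which had the greatest fold change of the 9 called pathway genes other than Cemip. It encodes an aggrecanase that also cuts versican, and it rose from 49.2 and 39.3 CPM to 247 and 280 CPM (log2 fold change 2.57, SE 0.204, adjusted p = 0.0151). Adamts1, which encodes a related protease, rose from 328 and 387 CPM to 812 and 887 CPM (log2 fold change 1.25, SE 0.221, adjusted p = 0.0477). Adamts4 measured 39.9 and 40.7 CPM in control and 64.8 and 76.0 CPM in YAP5SA and missed the threshold (adjusted p = 0.0655). Of the 7 genes of this list 2 rose and 0 fell, beside 3.12% and 0.999% of all tested genes. The median log2 fold change of the list was 0.66. Adamts5 lost its call without YAP5SA replicate 2 alone (log2 fold change 2.50), whereas Adamts1 lost it without either YAP5SA library (1.33 and 1.20). Adamts1 also lost its edgeR call with the stricter filter, the replicate block and the crossed block (adjusted p = 0.0554, 0.101 and 0.0717).

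Of 19 tested genes that make the sugar chains of versican, 1 rose and 0 fell, beside 3.12% and 0.999% of all tested genes. Their median log2 fold change was 0.19. With no overlap between the groups, 9 were higher and 3 lower, beside 28.1% and 28.3%. Dse, which encodes the epimerase that turns chondroitin sulfate into dermatan sulfate, rose from 38.1 and 26.4 CPM to 73.7 and 80.3 CPM (log2 fold change 1.25, SE 0.226, adjusted p = 0.0493). Among 10 genes that link CD44 to the cytoskeleton or cut it from the surface, 1 rose and 0 fell, beside 3.12% and 0.999%. This was Ezr, which encodes ezrin, at 41.9 and 35.6 CPM in control and 205 and 228 CPM in YAP5SA (log2 fold change 2.48, SE 0.185, adjusted p = 0.0129). Mmp14, which encodes a membrane protease that can shed CD44, measured 58.8 and 55.1 CPM in control and 87.5 and 98.9 CPM in YAP5SA (adjusted p = 0.0768). Dse lost its edgeR call with the stricter filter, the replicate block and the crossed block (adjusted p = 0.0571, 0.0632 and 0.0521). It also lost the call without either YAP5SA library (log2 fold change 1.34 and 1.21). Among the 12 alternatives, Ezr lost its call only without YAP5SA replicate 2 (log2 fold change 2.43).

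**Figure D4:**
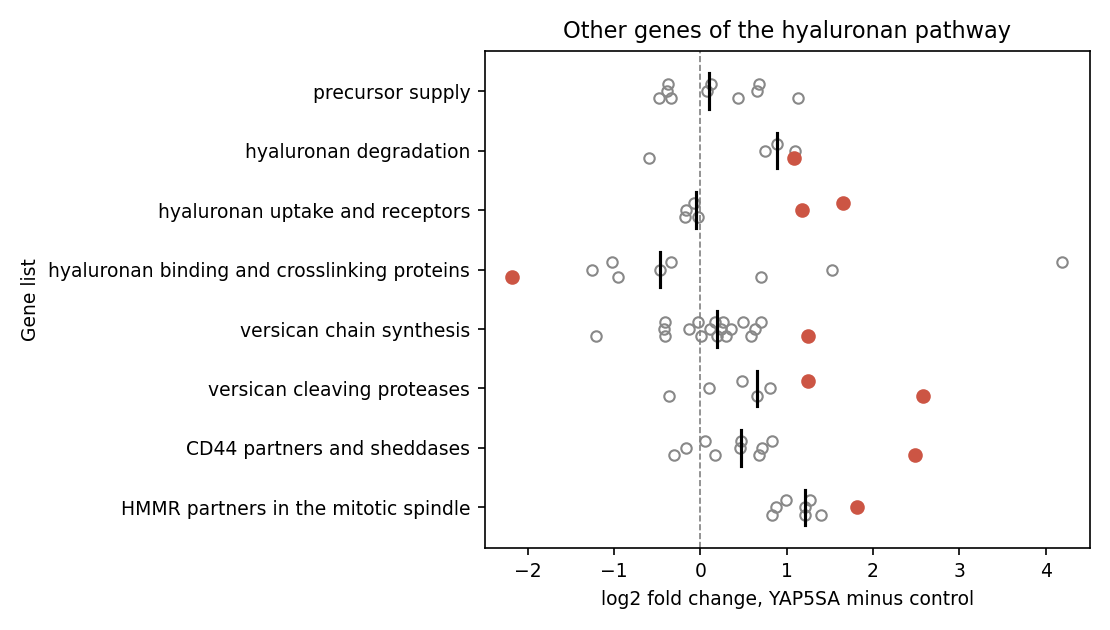
Log2 fold change, YAP5SA minus control, of the tested genes in 8 lists of hyaluronan genes and of genes that act with the members. Filled red points passed the threshold, open grey points did not, and the black bar is the median of the list. The 9 called genes include Adamts5 at 2.57 and Ezr at 2.48 to the right and Ptx3 at -2.18 to the left; the open point at the far right is Ambp, which had 0 and 1 counts in control.

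Around Cemip, 17 other genes of the table lay at least in part within 500 kb of it on chromosome 7, and 9 were tested. Of these 1 rose and 0 fell, beside 3.12% and 0.999% of all tested genes. Abhd17c, which encodes a depalmitoylating enzyme and is the nearest gene on the upstream side, rose from 35.8 and 43.2 CPM to 208 and 226 CPM (log2 fold change 2.46, SE 0.187, adjusted p = 0.0141). Its start lies 65.4 kb upstream of that of Cemip, and it lost its call only without YAP5SA replicate 2 (adjusted p = 0.0684) among the 12 alternatives. Arnt2, which encodes a transcription factor of the bHLH-PAS family and starts 324 kb upstream, measured 1.27 and 4.23 CPM in control and 16.3 and 15.7 CPM in YAP5SA. Its log2 fold change of 2.60 (SE 0.532) missed the threshold (adjusted p = 0.0615) and passed it in 6 of the 12 alternatives, among them DESeq2 (adjusted p = 0.000128) and the fits without control replicate 1 (log2 fold change 1.93) and without control replicate 2 (3.69). Fah, at the far upstream edge, had a log2 fold change of 0.36 (adjusted p = 0.505). On the downstream side, Mesdc1 and Mesdc2 had log2 fold changes of 0.42 and 0.32 and the 4 genes beyond them lay between -0.36 and 0.20, none past the threshold.

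**Figure D5:**
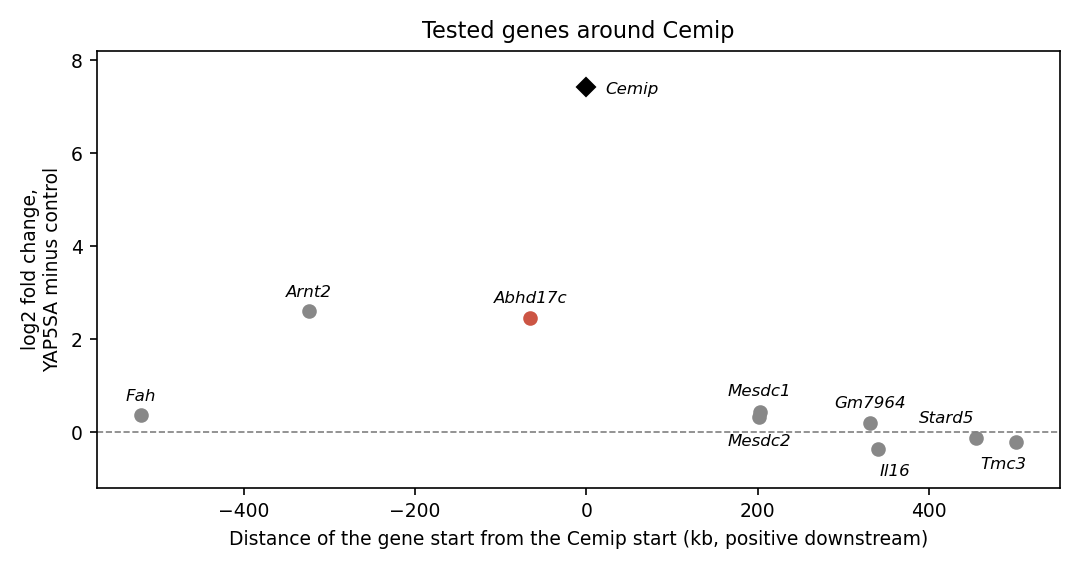
Log2 fold change, YAP5SA minus control, of Cemip (diamond) and of the 9 tested genes near it, against the distance of each gene start from the Cemip start in kb, positive in the direction of Cemip transcription; the red point passed the threshold and grey points did not. Abhd17c at 2.46 and Arnt2 at 2.60 lie upstream, and the genes downstream lie between -0.36 and 0.42.

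The pattern of Cemip over the 4 libraries was set beside that of 12173 tested genes with a mean of at least 5 CPM, by the root mean square distance between log2(CPM + 0.5) profiles centred on their own means. This measure uses the rise that picked Cemip and is a description. The nearest was Tnfsf15, which encodes a TNF superfamily ligand, at a distance of 0.52, with 0.181 and 0.264 CPM (2 counts each) in control and 52.9 and 61.2 CPM in YAP5SA. Serpinb9b followed at 0.88, with 6.88 and 3.04 CPM against 263 and 258 CPM, and Frmpd1 at 0.92, with 0.181 and 0.264 CPM against 33.7 and 30.1 CPM. Lrp2, which encodes the endocytic receptor megalin, at 1.81 and 3.83 CPM against 159 and 130 CPM, and Lrtm2 stood at 0.97 and 0.98. With a pseudocount of 0.1 CPM only 2 of the 5 genes stayed among the nearest.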

How the data were processed

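Nuclear RNA was read in 4 libraries, 2 control and 2 YAP5SA, grouped by their titles. Per the labels' protocols, RNA from bead-bound nuclei went into a stranded, ribosomal RNA-depleted, paired-end library, and reads were mapped to mm10 with STAR. The submitters' processing notes name DESeq2. The strand setting, annotation and counting program were not given in the sources used here. The authors deposited raw counts per gene symbol. The ATAC-seq and 4C-seq samples were not analysed here. The members, lists and tests were chosen with earlier results of these data known.

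Genes were filtered with filterByExpr (minimum count 10) and scaled by TMM, and groups were compared with the quasi-likelihood test of edgeR 4.0.16 (R 4.3.3) without a replicate block. P-values were adjusted by Benjamini-Hochberg over all 17715 tested genes, threshold 0.05. The SE was derived from the log2 fold change and the F statistic, and 95% intervals use the degrees of freedom of that test. Alternatives were DESeq2 1.42.0, limma-voom (limma 3.58.1), RLE factors, library totals, no filter, a stricter filter (1 CPM in all 4 libraries and 50 counts in all), each library left out, and a replicate block. The pipeline was also run on simulated counts with the same spread in both groups. The real pairs differed in spread, at 34.3% in control and 8.44% in YAP5SA, so that run does not cover this difference. Coordinates and exon lengths came from GENCODE M21 and promoters from RefSeq (GRCm38.p6). Of the symbols, 44052 matched directly, 777 by an older name, 107 were shared and 2047 unmatched. A count of 0 allows up to 3 counts, or 0.202 to 0.397 CPM. Poisson and binomial intervals take in counting error only. Named genes were all members, every called pathway gene (the 2 smallest p in lists with none), up to 2 per marker list, called neighbours of Cemip and the 5 patterns nearest to it. Tmem2, Hexa, Tnfaip6, Lyve1, Adamts4, Tpx2, Top2a, Mmp14, Arnt2 and Fah were named after their values were seen. So were Mesdc1, Mesdc2, Tlr4, Habp2, Adamts15, Cd163, Msln, Upk1b and the overlapping or barely counted genes. A result for 1 pathway gene is not reported here.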

Additional observations from a re-analysis of the deposited data

How the results depend on the processing

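The fold change of Cemip kept its direction in all 12 alternatives. These refit the same counts by which Cemip was picked, so this is no test of its rise. All genes called higher numbered 553, and 1069 with DESeq2, 1727 with no filter, 354 with the stricter filter and 27 to 3749 when single libraries were left out. Those called lower numbered 177, and 527, 1689, 99 and 0 to 3554 in the same settings. Of the 8 members other than Cemip, 0 were called higher, and 3 with DESeq2, 4 with no filter (beside 5.65% of all genes in that fit) and 0 to 5 with a library left out, against 0 to 1 called lower. Without control replicate 1, 18.8% of all genes were called higher and 17.4% lower, and without control replicate 2, 19.7% and 18.6%. Of the other pathway genes, 8 were called higher, and 20 with DESeq2, 28 with no filter, 3 with the stricter filter and 0 to 37 with a library left out. Those called lower numbered 1, and 3 with no filter and 0 to 9 with a library left out. The cause of these shifts was not tested. In fits without a library, its lone partner was assumed to vary like the other pair.

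The sign of small differences changed in 3 members. Has3 was at 0.041 with limma-voom and from -0.54 to 0.54 with a library left out, Hyal2 from -0.078 to 0.019, and Vcan at -0.0092 with the stricter filter and from -0.22 to 0.34. In the last 150 bases of the promoter windows, 0 of the 7 members held GGAATG, beside 6.94% of all windows. Of the 5 patterns nearest to Cemip, 2 stayed with the smaller pseudocount.

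No label says that the replicate numbers pair the libraries, and deviations of same-numbered libraries from their group means correlated at -0.10. The abundant transcript Gm26917 did follow the numbers, at 13.0% and 12.5% of counts in the replicate 1 libraries and 7.91% and 7.93% in the replicate 2 libraries. With a replicate block, 321 genes were called higher and 112 lower, and 4 other pathway genes higher. With the crossed pairing, added after seeing the data, these were 328, 103 and 3.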

Other observations

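Of 73 members and pathway genes with a mean of at least 5 CPM, 5 differed by 3-fold or more between the control libraries and 0 between the YAP5SA libraries, or 6.85% and 0%, beside 4.31% and 0.0329% of all 12174 such genes. The median ratio of the higher to the lower control library was 1.27 in this set and 1.28 over all such genes, so the set lies near the background. The widest was Lyve1, 6.55-fold in control and 1.02-fold in YAP5SA. Tlr4, which encodes a Toll-like receptor, measured 76.0 and 270.4 CPM in control and 153 and 151 CPM in YAP5SA, 3.56-fold against 1.01-fold. Habp2, which encodes a hyaluronan-binding serine protease, differed 3.84-fold in control, and Adamts15, which encodes a versican-cleaving protease, 3.26-fold. Of 9 macrophage markers 1 differed by 3-fold or more in control. This was Cd163, a scavenger receptor gene of resident macrophages, which measured 81.2 and 13.1 CPM in control and 16.0 and 19.4 CPM in YAP5SA. Lyve1 and Cd163 were higher in control replicate 1, while Tlr4, Habp2, Has2 and Adamts15 were higher in control replicate 2.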
